A study of Mus musculus with 6 samples.

Results

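The 45 genes described here drive the cell division cycle, from the G1/S regulators and the enzymes of DNA replication to the kinases, checkpoint proteins and motors of mitosis. They were found by symbol or older symbol on a whole mouse genome array, where Cdk1 and Cdc45 carry the older names Cdc2a and Cdc45l. Where several probes matched a gene, the one brightest on average in the sample channel stands for it. All 45 of the 27646 genes on the array were found, and all 45 were among the 24802 genes that passed the filter on dim probes. Tests covered 44 of them, because the Bub1b spot on 1 array was marked as faulty and left out.

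RNA came from virgin mammary glands of the C57/B6 strain, either wild type (WT) or carrying 1 knockout copy of ΔNp63 (het), the p63 isoforms without the N-terminal transactivation domain. Of the 3 cell populations, P4 was sorted as CD24+CD29hi and enriched for mammary stem cells, P5 was sorted as CD24+CD29lo and enriched for luminal progenitors, and MEC was the total mammary epithelial cells. Every population and genotype had 1 array, so no group had a replicate, and how many mice went into an array, their age and the construction of the allele are not given in the sources used here. The sample carried Cy5 and Cy3 marked a common reference RNA pooled from 11 mouse cell lines, so every level below is log2(sample over reference) for that gene, and levels of different genes are not compared.

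In dividing cells, E2F factors switch on the genes of S phase, and the MCM proteins are loaded onto origins as the replicative helicase. Cyclin B with Cdk1 then starts mitosis, and the spindle checkpoint holds back the anaphase-promoting complex, APC, until chromosomes are attached. Transcripts of the mitotic genes peak in G2 and M phase, so their summed level in a tissue is widely read as a sign of how many of its cells divide. In the virgin gland most epithelial cells are out of cycle, while established cell lines, the source of the reference, divide continuously.

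Promoters of such genes often hold a CHR element, read by the DREAM and MuvB complexes, with CCAAT boxes bound by NF-Y near it, or an E2F site. Promoters of 37 members were present in a RefSeq table (GRCm38.p6), each running from 250 bases before to 50 bases after the start. The first listed entry of each gene was used, and whether its start is the one used in these cells was not checked. CHR letters (TTTGAA or TTTAAA, either strand) were found in 22 of 37 members (59.5%) against 27.8% of all 27025 promoters of this length. CCAAT was found in 27 (73.0% against 37.9%) and the E2F letters (TTTCCCGC or TTTGGCGC) in 6 (16.2% against 1.63%), again on either strand. The motifs were searched separately, so overlapping letters count for each. All 6 promoters with an E2F match were among the 8 origin licensing and helicase promoters, and 0 of 21 promoters of mitotic genes and proliferation markers had one. Of those 21, 16 (76.2%) had both CHR and CCAAT letters, against 10.9% of all promoters. A match is a run of these exact letters and was not tested as a binding site. Sites with other letters were not searched for, so a promoter without a match is not shown to lack a site.

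The promoters of 5 of the genes on which the comparisons below turn are shown, as the 250 bases before the start. Those of Mybl2 and Nusap1, which also stand out below, held none of the searched letters and are not shown. Capitals mark the motif letters. Mcm6 passed the test between P4 and P5, Plk1 and Prc1 passed it between P4 and MEC, and Cdc20 and Cenpa were among the genes farthest apart between the genotypes in P5. They lie at chr1:128359706-128359955 (Mcm6, minus strand), chr7:122159185-122159434 (Plk1, plus strand), chr7:80294201-80294450 (Prc1, plus strand), chr4:118437344-118437593 (Cdc20, minus strand) and chr5:30666636-30666885 (Cenpa, plus strand) of GRCm38.p6, directly upstream of the annotated start.
Mcm6: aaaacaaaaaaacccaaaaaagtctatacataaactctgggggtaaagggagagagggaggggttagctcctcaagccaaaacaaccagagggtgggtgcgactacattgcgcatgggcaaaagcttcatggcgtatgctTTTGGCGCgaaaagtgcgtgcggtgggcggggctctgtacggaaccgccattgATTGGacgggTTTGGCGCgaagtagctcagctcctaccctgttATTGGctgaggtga
Plk1: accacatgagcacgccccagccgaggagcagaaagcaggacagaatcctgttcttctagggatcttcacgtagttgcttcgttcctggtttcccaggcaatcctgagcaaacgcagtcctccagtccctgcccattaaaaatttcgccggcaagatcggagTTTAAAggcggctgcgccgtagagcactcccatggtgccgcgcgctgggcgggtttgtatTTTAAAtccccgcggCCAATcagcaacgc
Prc1: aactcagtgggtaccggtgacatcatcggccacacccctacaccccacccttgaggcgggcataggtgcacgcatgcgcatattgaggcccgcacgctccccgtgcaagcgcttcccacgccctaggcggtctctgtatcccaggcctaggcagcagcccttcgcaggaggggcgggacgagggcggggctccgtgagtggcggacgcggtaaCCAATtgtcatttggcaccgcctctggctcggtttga
Cdc20: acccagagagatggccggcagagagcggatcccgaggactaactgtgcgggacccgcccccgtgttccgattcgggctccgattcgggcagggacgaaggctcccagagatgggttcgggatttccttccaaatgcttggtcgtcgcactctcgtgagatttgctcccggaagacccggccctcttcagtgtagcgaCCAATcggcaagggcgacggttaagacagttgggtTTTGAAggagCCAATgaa
Cenpa: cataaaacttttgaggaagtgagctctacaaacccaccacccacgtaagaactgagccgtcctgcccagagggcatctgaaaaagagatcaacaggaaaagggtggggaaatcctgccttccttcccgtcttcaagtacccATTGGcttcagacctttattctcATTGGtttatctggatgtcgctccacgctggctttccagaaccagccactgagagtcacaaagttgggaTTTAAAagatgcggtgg
Mcm6 held 2 E2F matches and 2 CCAAT boxes on the minus strand (printed as ATTGG) and no CHR letters, while the remaining 4 held CCAAT and CHR letters and no E2F match. In Prc1 the CHR letters begin within the last printed bases and run past the start, so they are not capitalised.

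Before the members, the labels and the sorts were checked. Trp63, the gene that encodes p63, stood at 5.99 in WT P4 and 5.48 in het P4, at 0.54 and 0.89 in the P5 pair, and at 3.71 and 2.66 in the MEC pair. It was lower in het by 0.50 in P4 and by 1.04 in MEC but higher by 0.35 in P5, and since which part of the gene the allele lacks is not given here, the probe does not check the genotype. The basal markers (10 of 10) were higher in P4 than in P5 and 7 of 8 luminal markers were lower, by the limma test described below, as the sort labels say. All 45 members were well above background in Cy5 on every array except for the left-out Bub1b spot, and none was saturated. On the same array, spots of 245 probes printed 10 times gave an error of 0.13 for a difference of 2 spots, which is technical only. The 4 sorted samples shared a slide and both MEC samples lay on another, and het lay at a later position than WT on both slides, so slide and MEC, and position and genotype, cannot be told apart. The median Cy3 signal was 252 to 290 on the sorted arrays and 116 and 118 on the MEC arrays.

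Nearly all members were below the reference on every array. All 45 were below it on the WT P4, WT P5, WT MEC and het MEC arrays, 42 of 44 on het P4 and 44 of 45 on het P5. By comparison, 42.1% to 44.9% of all genes were below the reference on an array. The median level over the members was -2.10 in WT P4 and -2.08 in het P4, -2.45 in WT P5 and -1.84 in het P5, and -2.29 in WT MEC and -2.61 in het MEC. These medians are 3.57 to 6.12 times below the reference, whereas the median of all genes was 0.05 to 0.11. Levels at least 4-fold below the reference were seen for 27 members in WT P4, 24 in het P4, 35 in WT P5, 15 in het P5, 26 in WT MEC and 31 in het MEC, against 1.46% to 3.50% of all genes. In these bulk samples, fewer dividing cells and less of the RNA per cell cannot be told apart.

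The het P5 array gave the highest level for 25 of the 44 fully measured members, and the WT P5 array for none of them. The lowest level fell on the het MEC array for 23 members and on the WT P5 array for 14. Over all genes, het P5 was the highest array for 11.1% and WT P5 for 15.3%, and the lowest was het MEC for 12.3% and WT P5 for 24.2%. The map of levels by gene and array shows this as a lighter het P5 column and a darker het MEC column in most role groups.

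**Figure D1:**
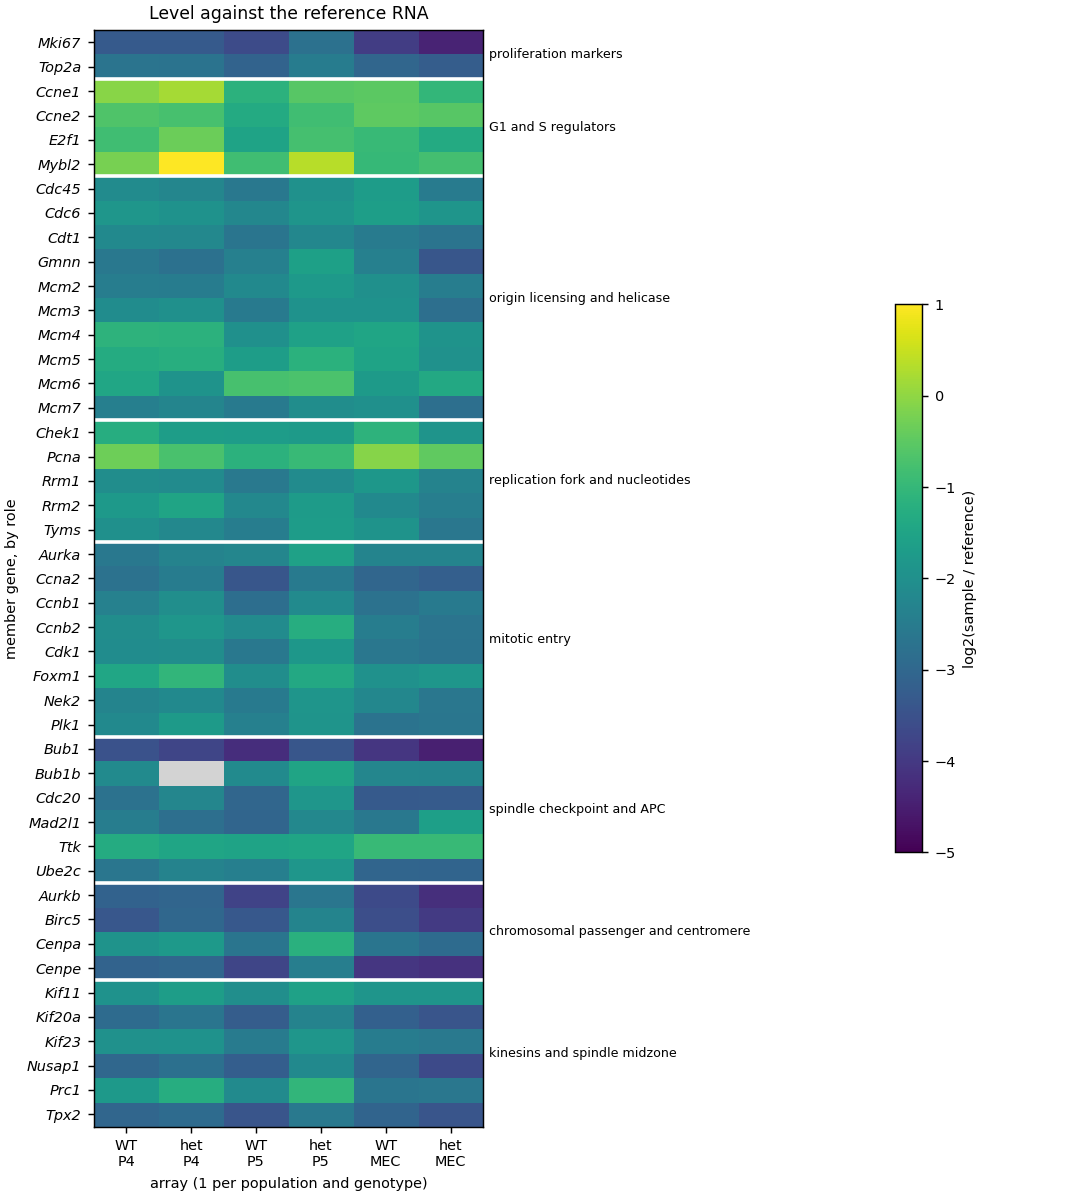
Colour gives log2(sample over reference) for each of the 45 members (vertical axis, grouped by role) on the 6 arrays (horizontal axis, 1 per population and genotype); the grey cell is the left-out Bub1b spot. The het P5 column is the highest for 25 of the 44 members measured on every array, and the het MEC column is the lowest for 23; colours compare arrays within a gene, not genes.

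Among the proliferation markers, Mki67 encodes the Ki-67 protein that coats mitotic chromosomes. Its level was -3.30 in WT P4 and -3.31 in het P4, -3.63 in WT P5 and -2.76 in het P5, and -3.91 in WT MEC and -4.41 in het MEC. Both MEC arrays were thus the lowest, and the P4 and P5 arrays overlapped. Top2a, the topoisomerase that untangles replicated DNA, ranged from -3.24 in het MEC to -2.48 in het P5.

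Of the G1/S regulators, Mybl2, a transcription factor of the MuvB complex, had the widest range of all members. It measured -0.23 in WT P4 and 1.18 in het P4, -0.84 in WT P5 and 0.34 in het P5, and -0.98 in WT MEC and -0.79 in het MEC. In the 2 sorted populations het was more than 1 log2 unit above WT, and in MEC the arrays were close. Ccne1, the cyclin E1 gene whose product drives entry into S phase, was at -0.06 and 0.19 in WT and het P4, -1.15 and -0.57 in P5, and -0.52 and -1.04 in MEC, with both P4 arrays above the rest. E2f1, an activator of S phase genes, ranged from -1.52 in WT P5 to -0.35 in het P4. Ccne2, encoding cyclin E2, varied least in this group, from -1.34 in WT P5 to -0.48 in WT MEC.

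The 10 origin licensing and helicase genes included Mcm6, a helicase subunit and the only Mcm gene with both P5 arrays above all others. Mcm6 was at -1.46 in WT P4 and -1.93 in het P4, -0.75 in WT P5 and -0.71 in het P5, and -1.74 in WT MEC and -1.39 in het MEC. Its MEC and P4 arrays overlapped. Mcm4 and Mcm5, subunits of the same ring, were highest in WT P4 (-1.12) and in het P5 (-1.16), respectively. Gmnn, which encodes the licensing inhibitor geminin, had the widest range of the group. It was at -2.61 and -2.75 in WT and het P4, -2.39 and -1.59 in P5, and -2.39 and -3.40 in MEC, so that het P5 was the highest array and het MEC the lowest. Cdt1, the loading factor that geminin blocks, varied least, from -2.70 in het MEC to -2.14 in WT P4. Cdc6, Cdc45, Mcm2, Mcm3 and Mcm7 lay between -2.82 and -1.63 on all arrays.

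In the replication fork and nucleotide group, Pcna encodes the sliding clamp of the polymerases. Pcna measured -0.33 in WT P4, -0.71 in het P4, -1.14 in WT P5, -0.95 in het P5, -0.08 in WT MEC and -0.46 in het MEC, with both P5 arrays lowest. Rrm2, the regulated subunit of ribonucleotide reductase, ranged from -2.44 in het MEC to -1.50 in het P4. Chek1, the kinase that halts the cycle when replication stalls, had the smallest range, from -1.89 in het MEC to -1.13 in WT MEC. Rrm1, the large reductase subunit, and Tyms, which makes thymidylate, lay between -2.62 and -1.69.

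Of the 8 mitotic entry genes, Ccnb2, encoding cyclin B2, varied most. It was at -2.06 and -1.84 in WT and het P4, -2.11 and -1.25 in P5, and -2.45 and -2.69 in MEC. Plk1, a kinase needed for spindle assembly, was at -2.16 and -1.74 in P4, -2.40 and -1.90 in P5, and -2.72 and -2.64 in MEC. For both genes the MEC arrays were the lowest pair. Aurka, the centrosomal aurora kinase, was lowest in WT P4 (-2.60) and highest in het P5 (-1.57). Nek2, a kinase that separates centrosomes, varied least, from -2.62 to -1.87. Ccna2, Ccnb1, Cdk1 and the transcription factor gene Foxm1 each had their lowest level in WT P5 or het MEC.

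Among the spindle checkpoint and APC genes, Cdc20, the activator of the APC, measured -2.73 in WT P4, -2.24 in het P4, -3.03 in WT P5, -1.84 in het P5, -3.29 in WT MEC and -3.28 in het MEC. Mad2l1, which holds Cdc20 inactive, was at -2.45 and -2.81 in P4, -3.03 and -2.21 in P5, and -2.60 and -1.62 in MEC. Mad2l1 was the only member whose highest array was het MEC. Ttk, the kinase that starts the checkpoint, varied least, from -1.51 in WT P5 to -0.96 on both MEC arrays. Bub1, a checkpoint kinase, was between -4.46 and -3.40, Ube2c, the ubiquitin-conjugating enzyme of the APC, between -3.07 and -1.84, and Bub1b, which encodes BubR1, between -2.28 and -1.49 on its 5 arrays.

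The chromosomal passenger and centromere genes shared 1 pattern, with het P5 highest and het MEC lowest for all 4. Cenpa, the centromeric histone H3 variant, was at -1.92 and -1.76 in WT and het P4, -2.68 and -1.20 in P5, and -2.67 and -2.91 in MEC. Cenpe, a kinetochore motor, was at -3.08 and -3.01 in P4, -3.76 and -2.43 in P5, and -4.06 and -4.14 in MEC. Birc5, encoding survivin, ranged from -3.99 to -2.28 and Aurkb, the kinase of the passenger complex, from -4.19 to -2.64.

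Prc1, which bundles microtubules in the spindle midzone, had the widest range of the kinesin and midzone genes. Its level was -1.79 in WT P4, -1.26 in het P4, -2.12 in WT P5, -1.06 in het P5, -2.67 in WT MEC and -2.61 in het MEC. Nusap1, a spindle microtubule binder, ranged from -3.66 in het MEC to -2.16 in het P5, and Kif11, the motor that pushes spindle poles apart, varied least, from -2.03 to -1.56. Kif20a, Kif23 and Tpx2, which act in cytokinesis and spindle assembly, lay between -3.41 and -1.84.

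P4 was then compared with P5, which asks whether the basal, stem cell-enriched cells and the luminal progenitor-enriched cells differ in these genes. Mcm6 was the 1 member of 44 that passed the test, and it was lower in P4, while 15% of all 24641 genes tested were called (7.54% higher and 7.5% lower in P4). Population and genotype were fitted together with limma over all 6 arrays, which left 2 residual degrees of freedom, and calls were made where the p adjusted by Benjamini-Hochberg over all genes was under 0.05. Mcm6 differed by -0.96 (SE 0.22, adjusted p = 0.0479), and its P4 and P5 arrays did not overlap. Its probe lies at chr1:128211735-128211794 (mm7, as the array files give it), and no annotation of that build was used here. Mcm6 was no longer called with the outlier local backgrounds kept as given (adjusted p = 0.0569), with an offset of 0 (adjusted p = 0.0524) or when the log ratios of the scanner software were used (adjusted p = 0.0641), and leaving out WT P4, het P4, WT P5 or het P5 gave adjusted p of 0.142 to 0.284. At an unadjusted p under 0.05, 6 members differed, as did 30.5% of all genes.

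The median difference of the members, P4 minus P5, was 0.11, against 0.07 for all genes, and it was -0.29 without WT P5 and 0.51 without het P5. By role, the median was 0.63 for the 4 G1/S regulators, of which Ccne1 differed by 0.92 (SE 0.28, adjusted p = 0.0936), and 0.01 for the kinesin and midzone genes. The other Ccne1 probe gave 0.32. E2f1 was at 0.55 and its other probe at 0.18, Ccne2 was at 0.38 and its other probe at 0.33, and Mybl2 had 1 probe. The arrays of P4 lay entirely above those of P5 for 6 of 44 members (29.3% of all genes) and entirely below for 4 (23.8%), so fewer members than genes in general were separated. With the P4 and P5 arrays alone, 5 members were called higher and 4 lower in P4, where 15.7% of all genes were higher and 13.0% lower.

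Against MEC, 3 members were higher in P4 and none was lower, where 18% of all genes were called, 9.51% higher and 8.5% lower. The 3 were Mybl2, higher by 1.36 (SE 0.31, adjusted p = 0.0435), Prc1, by 1.12 (SE 0.26, adjusted p = 0.0429) and Plk1, by 0.73 (SE 0.16, adjusted p = 0.0390). Their probes lie at chr2:162824323-162824380, chr7:76185003-76185055 and chr7:118093971-118094030 (mm7). For all 3, both P4 arrays were above both MEC arrays. None was called with the outlier local backgrounds kept as given, where the adjusted p was 0.114, 0.103 and 0.0734, and the differences were -0.10, -0.53 and -0.93 with median centring in place of loess. Plk1 also lost its call with an offset of 0 (adjusted p = 0.0566), with the scanner ratios (adjusted p = 0.0617) and in the Cy5 channel alone (adjusted p = 0.230), and Prc1 with the scanner ratios (adjusted p = 0.0595). Leaving out WT P5 or het P5 put Mybl2 at an adjusted p of 0.0504 or 0.0503 and Plk1 at 0.0528 or 0.0527. Without WT P4 none of all genes was called, nor was any without het P4, while 22.0% and 18.7% of all genes, and 3 and 0 members, had an unadjusted p under 0.05. Without WT MEC 25 members were called higher, beside 16.8% of all genes, and without het MEC 2 were, beside 8.70%.

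Over all 44 members the median P4 minus MEC was 0.46, against 0.05 for all genes, but -0.95 with median centring, where the median of all genes was -0.45. It was 0.84 without WT MEC and 0.11 without het MEC. Under the loess values P4 was entirely above MEC for 27 of 44 members (34.7% of all genes) and entirely below for 4 (27.5%). The median was 0.90 for the chromosomal passenger and centromere genes and 0.55 for mitotic entry, and 0.13 for origin licensing and 0.05 for replication fork and nucleotide genes. Ttk at -0.43 (SE 0.13, adjusted p = 0.0869) and Mad2l1 at -0.52 were on the other side. Of the passenger and centromere genes, Cenpa was at 0.95 and Cenpe at 1.05, but the other Cenpa probe gave 0.31. The other Cenpe probes gave 0.36 and 0.14, and Aurkb and Birc5 had 1 probe each. The MEC samples also held other cells, as fibroblast markers showed: 7 of 8 were called lower in P4 than in MEC (median -3.18), and the summed Cy5 level of the 8 was 364280 and 197762 in WT and het MEC, 28015 and 38457 in P4, and 10258 and 20270 in P5. All 8 were above background on every array, and their part in the member differences was not tested.

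No member was called between P5 and MEC, where 6.39% of all genes were (2.11% higher and 4.28% lower in P5). The smallest adjusted p was 0.0525, for Ube2c at 0.92 (SE 0.18), and 12 members had an unadjusted p under 0.05, as did 24.7% of all genes. The median P5 minus MEC was 0.30 against 0.02 for all genes, again turning to -0.74 with median centring, where all genes had a median of -0.41. P5 lay entirely above MEC for 12 members (27.0% of all genes) and below for 3 (26.4%). By role the median ran from 0.91 for the passenger and centromere genes to -0.19 for the replication fork genes, among which Pcna differed by -0.77 (SE 0.19, adjusted p = 0.0812). Without WT MEC 14 members were called higher, beside 7.03% of all genes. The median turned to -0.021 without het MEC and to -0.041 without het P5.

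**Figure D2:**
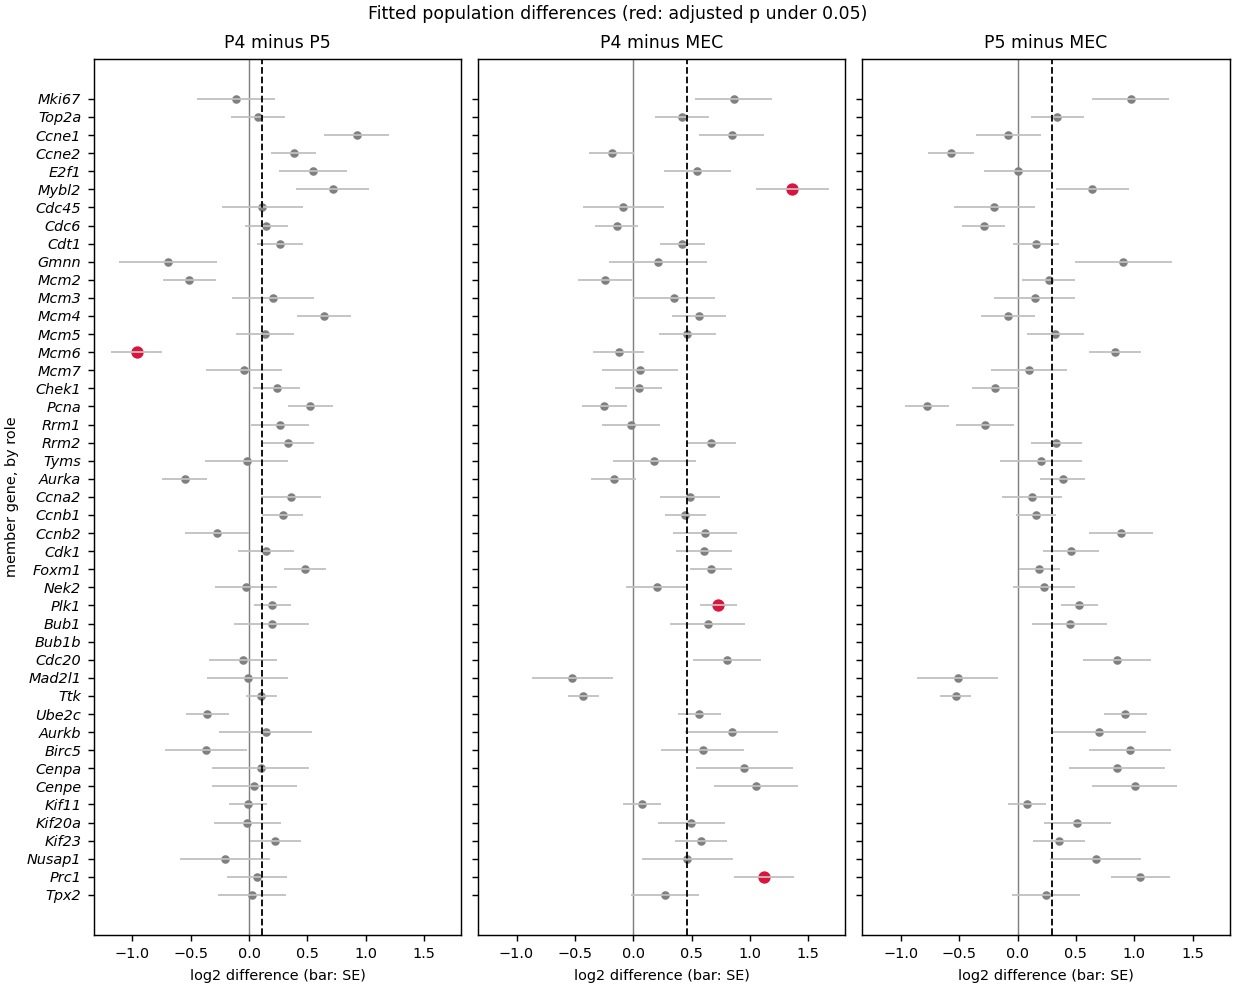
Horizontal axes give the fitted log2 difference between 2 populations with its SE as a bar, for each of the 44 fitted members (vertical axis, by role); red points have an adjusted p below 0.05 and the dashed line is the members' median (0.11, 0.46 and 0.30 from left to right). Most points sit right of 0 in both panels against MEC, and 4 points in all are red.

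Few of the other replication and mitosis genes were called. Of 32 further DNA replication genes, 0 were called between P4 and P5, 1 between P4 and MEC and 0 between P5 and MEC, and of 55 further mitosis genes the counts were 2, 2 and 0. The shares over all genes were 15%, 18% and 6.39%. Among them Cdca2, which targets a phosphatase to chromosomes, exceeded its P5 level in P4 by 0.81 (adjusted p = 0.0261) and its MEC level by 1.46 (adjusted p = 0.00856), and Kif18b, a mitotic kinesin, was higher than in MEC by 0.57 (adjusted p = 0.0456).

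The genes that decide whether a cell enters the cycle were listed apart. Of 9 G1 cyclins, kinases and E2F factors, 3 were called between P4 and P5, where 15% of all genes were. Ccnd2, encoding cyclin D2, was higher in P4 by 2.55 (SE 0.29, adjusted p = 0.00867) and E2f3 by 1.19 (SE 0.26, adjusted p = 0.0399), and Ccnd1, encoding cyclin D1, was lower by 1.97 on the log2 scale (adjusted p = 0.00761). Of 11 CDK inhibitors and pocket proteins, Cdkn1a (p21) differed by 0.71 between P4 and P5 (adjusted p = 0.0423), and the retinoblastoma gene Rb1 differed by -0.90 (adjusted p = 0.0361). Against MEC, 18% of all genes were called for P4 and 6.39% for P5. Ccnd1 differed from MEC in P4 by -1.65 (adjusted p = 0.0131), and Ccnd2 in P5 by -2.50 (adjusted p = 0.0193). Cdkn1c (p57) was lower than in MEC in both sorted populations, with differences of -2.49 for P4 (adjusted p = 0.0177) and -3.09 for P5 (adjusted p = 0.0204). Cdkn1b (p27) was higher in P5 by 0.81 (adjusted p = 0.0477).

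The genotype comparison asks what loss of 1 ΔNp63 copy does to these genes. No member was called in the additive limma fit, in which 0% of the 24641 genes were, with 3620 of all genes and 5 members at an unadjusted p under 0.05. The smallest adjusted p was 0.283, for Mybl2 at 0.93 (SE 0.26). The fitted median of the members was 0.18, but -0.084 without WT P5 or het P5, -0.039 in the Cy5 channel alone and -0.17 with median centring. With the P4 and P5 arrays alone, 5 members were called higher in het, beside 6.59% of all genes. With median centring and the outlier backgrounds as given, 17 were called lower, beside 28.6% of all genes. Over the 3 populations, het was above WT in 0 of 3 for 1 member, in 1 for 14, in 2 for 21 and in 3 for 8, whereas 13.0%, 28.0%, 32.7% and 26.3% of all genes fell in these classes. Each population is described next alone, as a difference of 1 array against 1 with no test.

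In P5, 43 of 44 members were higher in het, against 60.7% of all genes, and their median difference was 0.67, against 0.07. At least 2-fold higher were 8 of 44, where 2.28% of all genes were, and none was 2-fold lower, against 0.917%. These were Cenpa at 1.48, Cenpe at 1.33, Cdc20 at 1.19, Mybl2 at 1.18, Aurkb at 1.16, Birc5 at 1.07, Prc1 at 1.07 and Nusap1 at 1.04. They include all 4 chromosomal passenger and centromere genes, whose median was 1.24, while the medians were 0.87 for kinesin and midzone genes, 0.82 for checkpoint and APC genes, 0.69 for mitotic entry and 0.47 for origin licensing. Chek1 at -0.04 was the 1 member not above 0, and its other probe gave 0.15. Mcm6 and Ttk were both at 0.04. Birc5 at 1.07 and Nusap1 at 1.04 lay just inside the 2-fold line, and Kif20a at 0.91 and Mki67 at 0.87 just outside it.

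Several measurements move with this difference. Among 264 genes outside the member and pathway lists with a mean of -2 or less on the arrays of P4 and MEC, 89.0% were higher in het P5. Their median was 0.49 and 3.79% were at least 2-fold higher. The 30 members under the same cut had a median of 0.78 with 7 at least 2-fold higher. Cell cycle genes outside the lists were not removed from the 264. The Cy5 channel alone gave a median of 0.43 for the members, with 40 of 44 higher in het and 4 at least 2-fold higher (1.80% of all genes). The Cy3 channel, which carried the same reference RNA on both arrays, gave a median of -0.03 for the members. With median centring in place of loess the median was 0.26 and no member was 2-fold higher (0.799% of all genes). With the outlier backgrounds also kept as given the median was -0.18 and 9 of 44 members were higher in het. Basal markers (median 0.73, 9 of 10 higher, summed Cy5 level 16315 in WT and 26657 in het P5) and fibroblast markers (median 0.70, 8 of 8 higher) were also higher in het P5. So were luminal progenitor markers (median 0.44, 5 of 5 higher, summed level 84815 and 94800) and endothelial markers (median 0.32, 6 of 6 higher). Hormone-sensing luminal markers were lower (median -0.66, summed level 69230 and 32826), as were luminal markers (median -0.35, 3 of 8 higher). The part of these markers in the result was not tested.

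Of 25 other probes of the same genes, 20 had the same direction in P5. The exceptions touch the leading genes: the other Cenpa probe gave -0.03 and the other Nusap1 probe -0.00. The remaining exceptions were the other probes of Chek1 (0.15), Mcm4 (-0.28) and Rrm1 (-0.39). Those of Mcm4 and Rrm1 were well above background on 0 arrays. The other Cenpe probes kept the direction but gave only 0.58 and 0.32. The other Mki67 probe gave 0.70 and the other Mad2l1 probe 0.66. Of the further pathway genes, 32 of 32 replication genes (median 0.50) and 51 of 55 mitosis genes (median 0.54) were higher in het P5, 1 of the latter at least 2-fold.

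In P4 the genotypes were closer. The median difference was 0.08, equal to that of all genes, and 27 of 44 members were higher in het against 60.7% of genes. Mybl2 at 1.41 was the 1 member at least 2-fold apart, where 3.56% of all genes were at least 2-fold higher in het and 0.483% lower. It was followed by Prc1 at 0.53, Cdc20 at 0.49, E2f1 at 0.48 and Plk1 at 0.42, and at the low end stood Mcm6 at -0.47, Chek1 at -0.41, Pcna at -0.38, Mad2l1 at -0.36 and Bub1 at -0.25. By role, all 8 mitotic entry genes were higher in het (median 0.27), and 1 of 5 replication fork genes was (median -0.23). Genes outside the member and pathway lists with a mean of -2 or less on the P5 and MEC arrays had a median of 0.27. The 31 members under the same cut had a median of 0.12. With median centring the members' median was -0.36 and with the scanner software's ratios it was -0.08. Luminal progenitor markers (5 of 5 higher in het P4, median 0.71, summed Cy5 level 3191 in WT and 4671 in het), fibroblast markers (7 of 8, median 0.55) and leukocyte markers (7 of 8, median 0.44) were higher in het P4, and their part in the result was not tested.

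In MEC the members were lower in het. The median was -0.25 against 0.00 for all genes, and 10 of 44 were higher in het against 50.8% of genes. Gmnn at -1.01 was the 1 member at least 2-fold lower, where 1.06% of all genes were (1.19% were 2-fold higher), followed by Mcm3 at -0.86, Cdc45 and Mcm7 at -0.82 and Chek1 at -0.76. The origin licensing genes had a median of -0.47 and the replication fork genes of -0.49, while mitotic entry genes had one of -0.05. On the higher side stood Mad2l1 at 0.98, Mcm6 at 0.35, Mybl2 at 0.19, Ccnb1 at 0.18 and Foxm1 at 0.11, and the other Mad2l1 probe gave 0.79. Genes outside the member and pathway lists with a mean of -2 or less on the sorted arrays had a median of -0.24. The 27 members under the same cut had a median of -0.35. Fibroblast markers were lower in het MEC (0 of 8 higher, median -0.88) and luminal markers higher (8 of 8, median 0.26), and their part in the result was not tested.

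**Figure D3:**
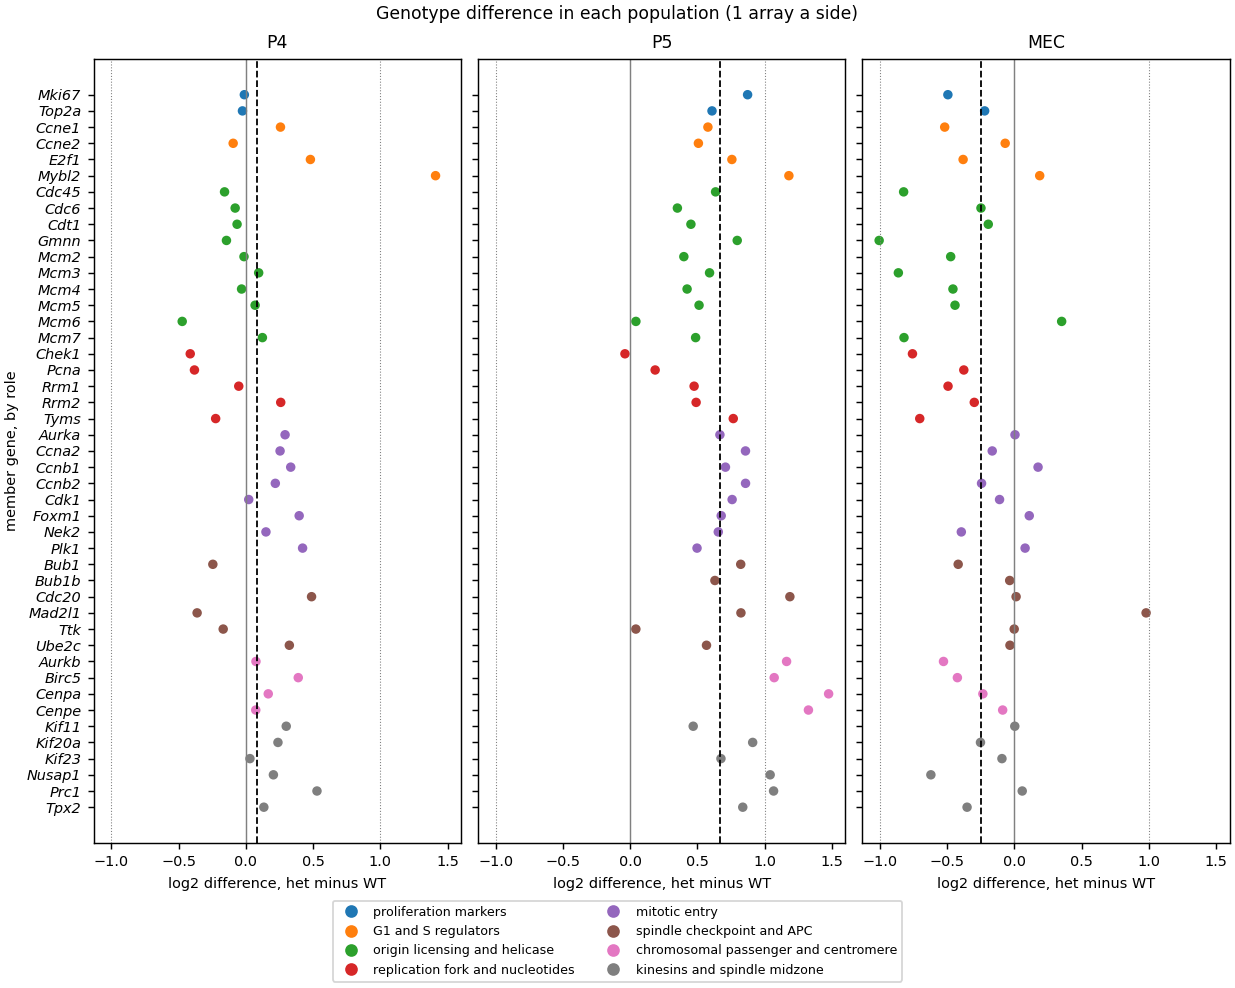
Each point is the log2 difference, het minus WT, of 1 member (vertical axis, coloured by role) in P4, P5 or MEC, from 1 array a side; dashed lines mark the median of the 44 fully measured members (0.08, 0.67 and -0.25) and dotted lines a 2-fold difference. The P5 panel lies right of 0 for all points but Chek1, and in MEC the licensing and replication genes lie mostly left of 0.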

How the data were processed

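The 6 arrays were scanned and quantified with Agilent Feature Extraction 9.5.3.1, per the submitters' processing notes. The deposited scanner files hold each spot's mean signal and median local background as raw intensity, and a log10 ratio of Cy5 over Cy3 that the authors' software background-subtracted and dye-normalized. The deposited series table holds log2 ratios, which followed the scanner ratios with correlations across probes of at least 0.988. The deposited spot flags are yes or no marks, used here as filters.

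The software was R 4.3.3, limma 3.58.1 and data.table (version 1.17.8). On WT P4, 11 spots had very bright local backgrounds, up to 30168, which drove the fitted Cy3 background mean of normexp to -559, against -2.88 on het P5. This mean was -48.9 on het P4, -93.1 on WT P5, -134 on WT MEC and -7.06 on het MEC. In each population it was thus lower on the WT array, so the choice of background also bears on genotype differences. Local backgrounds that the scanner software marked as outliers were therefore replaced by the array's median, after which the mean was -5.93 to -0.83. This was chosen after the files were seen, from the backgrounds and not from the members, and the values as given are an alternative. Normexp (offset 50) and loess within each array followed, and spots of a probe were averaged.

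Spots marked as non-uniform or as outliers (74 to 236 an array) were left out. A gene was kept where its probe stood well above the Cy5 background on 2 or more of the 6 arrays, and the 161 with a missing value were left out of tests, so 24641 were tested. Between 74.3% and 89.8% of spots were well above background, and the number of arrays limits the precision.

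The tests are limma's, on log2 ratios with population and genotype as terms. The residual mixes noise with any genotype difference that is not the same in every population, and p-values measure the spread between these arrays. Within a population the text counts genes at least 2-fold apart. Named were all called members, the 2 widest-ranging and the 1 least-ranging member of each role, the 5 largest genotype differences each way in a population, and the 2 largest called pathway differences each way in a comparison. Members, roles and lists were chosen with earlier results of these data known. The fit was tested on simulated data with equal noise for every gene and no genotype difference. That does not check it where genotype differences vary between populations. Alternatives changed the background correction, normalization, channel, filter, probe rule and arrays used.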

Additional observations from a re-analysis of the deposited data

Results flagged for a closer look

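The members' genotype differences ran in opposite directions in P5 and MEC, and the difference between the populations was not tested. The members' median, het minus WT, was 0.67 in P5 and -0.25 in MEC. Genes outside the member and pathway lists with a mean of -2 or less on the other arrays ran the same way, with medians of 0.49 and -0.24. The members under the same cut had medians of 0.78 and -0.35. For 5 of 44 members the difference was at least 1.5-fold in both populations, higher in het P5 and lower in het MEC, as it was for 0.946% of all genes. Gmnn, the licensing inhibitor gene, was at 0.80 in P5 and -1.01 in MEC. The helicase genes Cdc45 and Mcm3 were at 0.63 and 0.59 in P5 and at -0.82 and -0.86 in MEC. Tyms, for thymidylate synthesis, was at 0.77 and -0.70, and Nusap1, a spindle protein, at 1.04 and -0.62. The other Nusap1 probe gave -0.00 and 0.07, the other 2 Tyms probes gave 0.13 and 0.71 in P5 and 0.09 and -0.60 in MEC, and the other Mcm3 probe gave 0.32 and -0.39. Each value is 1 array against 1. No group had the 4 samples that a check for an outlying array needs.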

How the results depend on the processing

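With 1 array a group, no value has a biological error. Counts of called members from all 6 arrays rest on 2 residual degrees of freedom, with variances that limma moderates over all genes. Fits with fewer arrays had fewer residual degrees of freedom. Of 304 alternative values for the counts and medians, 198 stayed within 1.5 times the count or within the technical error of the median, and the rest moved further. Part of the 198 could not move, so their number does not measure stability. The changed filters on dim probes kept the same 44 members, which fixed the medians. Leaving out a P5 array likewise could not change the median P4 minus MEC. Counts of 0 that stayed at 0 are also among the 198. Of 112 alternative medians, 24 had the opposite sign, 7 of them for genotype in P4. The values that moved further follow, as counts of members or as the members' median log2 difference, and the cause was not tested unless given. No paired analysis was possible because each group had 1 array and the labels give no replicate numbers. Signal over background did not limit the members, which were well above it on all arrays.

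Kept as given, the outlier backgrounds left 0 members lower in P4 than P5 (members' median 0.25), beside 5.58% of all genes, and 0 higher in P4 than MEC (2.77%). They gave medians of 0.014 for genotype and -0.48 for genotype in MEC. They put 5 members at least 2-fold lower in het MEC, beside 0.706% of all genes. An offset of 0 gave 0 members lower in P4 than P5 (7.69% of all genes) and 1 higher in P5 than MEC (2.43%). It put 1 at least 2-fold lower in het P4 (1.85%), and 1 higher (1.80%) and 3 lower (2.15%) in het MEC. The scanner software's log ratio and the deposited series table gave the same values, and the shares of all genes that follow are for the former. There were 0 members lower in P4 than P5 (7.45% of all genes, members' median -0.13) and 1 higher in P4 than MEC (8.55%). Medians were 0.44 for P5 minus MEC, 0.036 for genotype and -0.080 for genotype in P4. At least 2-fold lower in het P4 were 2 members (2.90%), and in het MEC 1 was higher (2.79%) and 3 were lower (2.78%). In the mean over arrays, the members' median level of -2.23 became -2.55 under the scanner ratios and the series table and -2.39 with an offset of 0. It became -2.89 with median centring and -2.01 with the mean over all probes of a gene. The latter also put 5 members at least 2-fold higher in het P5, beside 1.55% of all genes.

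Median centring in place of loess turned the members' direction against MEC. It put 4 members lower in P4 than P5 (median -0.26), beside 14.7% of all genes. It put 0 higher and 35 lower in P4 than MEC (median -0.95), beside 16.8% and 49.6% of all genes. In P5, 29 were lower than in MEC (median -0.74), beside 46.6% of all genes. The genotype median became -0.17, and within P4, P5 and MEC it was -0.36, 0.26 and -0.45. At least 2-fold apart were 0 members higher (1.34% of all genes) and 2 lower (1.98%) in het P4, 0 higher in het P5 (0.799%) and 4 lower in het MEC (2.21%). Mybl2, Prc1 and Plk1 turned to -0.10, -0.53 and -0.93 in P4 minus MEC. With the outlier backgrounds also kept as given, 0 members were lower in P4 than P5 (median 0.25), beside 1.48% of all genes. There were 0 higher (1.34% of all genes) and 6 lower (27.0%) in P4 than MEC (median -0.51). In P5, 8 were lower than in MEC (median -0.83), beside 31.4% of all genes. The genotype fit then called 17 lower (median -0.88), beside 28.6% of all genes, and medians within P4, P5 and MEC were -1.49, -0.18 and -0.99. At least 2-fold apart were 0 members higher (1.51% of all genes) and 41 lower (34.7%) in het P4, 0 higher in het P5 (0.942%) and 21 lower in het MEC (6.51%). The mean level was -2.51. Plk1 and Prc1 were then at -0.51 and -0.15 in P4 minus MEC, and Mybl2 at -0.066 for genotype in P4.

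The Cy5 channel alone gave medians of -0.10 for P4 minus P5, 0.29 for P4 minus MEC, -0.039 for genotype, -0.18 for genotype in P4 and 0.43 in P5. It put 1 member higher in P5 than MEC (3.35% of all genes) and 4 at least 2-fold higher in het P5 (1.80%). The P4 and P5 arrays alone called 5 members higher (15.7% of all genes) and 4 lower (13.0%) in P4 and 5 higher in het (6.59%), with a genotype median of 0.39.

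Leaving out 1 array at a time, the counts ran from 0 to 5 higher and 0 to 4 lower for P4 against P5 (median -0.29 to 0.51), 0 to 25 higher and 0 to 0 lower for P4 against MEC (median 0.11 to 0.84), 0 to 14 higher and 0 to 1 lower for P5 against MEC (median -0.041 to 0.65), and 0 to 5 higher for genotype (median -0.084 to 0.39). The counts of 5 and 4 came without WT MEC or het MEC, those of 25 and 14 without WT MEC, and the medians below 0 without WT P5 (P4 minus P5 and genotype), het P5 (P5 minus MEC and genotype) or het MEC (P5 minus MEC). A population or genotype left with 1 array was assumed to vary like the others.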
